A study of Mus musculus with 12 samples.

Results

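A set of 10 genes that mark the resident macrophage of the mouse liver was followed through single-cell libraries of fetal and newborn liver: Clec4f, Vsig4, Timd4, Cd5l, Marco, Adgre1, Id3, Nr1h3, Spic and Fcna. These 10 genes were taken by symbol from the 22519 genes present in the gene lists of both stages (31053 genes at E16.5 and 22597 at P3), and all 10 were found in every library. The study profiled dissociated liver on the 10x droplet platform before birth (E16.5) and in newborn pups on postnatal day 3 (P3), in the offspring of Jag1Ndr/+ parents. Jag1 encodes a Notch ligand, and Ndr (Nodder) is a mutant allele of it. The groups at each age were wild type (Jag1+/+), heterozygous (Jag1Ndr/+) and homozygous (Jag1Ndr/Ndr), with no other allele and no treatment in the labels, and homozygous pups at P3 were recognised by their jaundice. Whether a library held 1 liver or several is not given in the sources used here, so p-values measure only the spread between libraries.

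The deposited matrices did not all hold separate libraries. At E16.5 the matrix labelled Jag1+/+ replicate 2 and the matrix labelled Jag1Ndr/+ replicate 2 were identical, with 23166 barcodes, and were counted as 1 sample, called here the shared library. At P3 6 pairs of matrices had between 53.4% and 100% of their barcodes in common, so 4 P3 libraries were used. Libraries A and B carry the labels Jag1+/+ replicates 1 and 2, but their barcodes also lie in matrices of other genotypes, so their genotype is unclear. Library C is Jag1Ndr/Ndr replicate 1 without the barcodes of library A, and library D is Jag1Ndr/+ replicate 1. After this step no pair of libraries had more than 0.94% of barcodes in common, and 184493 barcodes with at least 1000 unique molecular identifiers (UMIs, one per captured RNA molecule) and at most 15% mitochondrial UMIs remained. They held between 72777843 and 253187351 UMIs per library. Values are given in a fixed order. The 5 fetal libraries come as wild type (Jag1+/+ replicate 1), shared, heterozygous (Jag1Ndr/+ replicate 1), then the homozygous pair (Jag1Ndr/Ndr replicates 1 and 2), and the P3 libraries as A, B, C and D. Age cannot be told apart from the digestion, which used TrypLE at E16.5 only, or from the 10x software version and gene list, which also differed between the ages.

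Kupffer cells are the macrophages that live in the liver sinusoids, where they take up bacteria, ageing red cells and debris from the blood. In the fetus, liver macrophages also sit at the centre of erythroblastic islands, in close contact with maturing red cells. Their identity programme combines receptors for uptake with secreted recognition proteins and with a set of transcription factors, and PU.1, the product of Spi1, is the general macrophage factor on which it builds.

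Upstream sequence was examined for the members because they are expressed in the same cells. RefSeq start sites (GRCm38.p6) gave an entry for 9 of the 10 genes, and Adgre1 was the one without. In the 250 bases before the start, the PU.1 core GAGGAA, searched on both strands, occurred in 5 of 9 members, and in 25.9% of 27025 genes in the same table. The RBPJ core TGGGAA, the letters bound by the DNA-binding partner of Notch, occurred in 4 of 9 members and in 24.1% of genes. The liver X receptor motif, AGGTCA repeated in the same direction with any 4 letters between, occurred in 0 of 9 members and in 0.0148% of genes. The 3 windows that follow belong to surface receptors, 2 that rose between ages and 1, Timd4, that did not pass the test: Vsig4 (chrX:96293439-96293688, minus strand), Marco (chr1:120505025-120505274, minus strand) and Timd4 (chr11:46810549-46810798, plus strand). GAGGAA matches are in capitals. Vsig4 had 2, at 155 and 53 bases before the start, Marco had 1 at 146 bases, with 1 RBPJ core match at 24 bases, and Timd4 had 0. Over all 9 the matches did not sort by the change with age: Clec4f, Nr1h3 and Spic rose and had 0, Fcna rose and had 3, and Id3 (2) and Cd5l (1) were not called. A match is a description of the letters and not a measured binding site.
Vsig4: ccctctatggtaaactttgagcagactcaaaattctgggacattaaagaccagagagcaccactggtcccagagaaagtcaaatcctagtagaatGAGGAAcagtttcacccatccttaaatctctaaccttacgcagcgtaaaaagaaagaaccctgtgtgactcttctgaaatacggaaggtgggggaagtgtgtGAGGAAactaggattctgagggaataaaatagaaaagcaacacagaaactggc
Marco: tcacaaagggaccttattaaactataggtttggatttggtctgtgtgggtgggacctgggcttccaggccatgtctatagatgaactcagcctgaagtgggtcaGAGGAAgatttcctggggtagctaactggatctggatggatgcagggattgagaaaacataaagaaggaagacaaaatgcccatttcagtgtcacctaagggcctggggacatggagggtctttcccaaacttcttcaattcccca
Timd4: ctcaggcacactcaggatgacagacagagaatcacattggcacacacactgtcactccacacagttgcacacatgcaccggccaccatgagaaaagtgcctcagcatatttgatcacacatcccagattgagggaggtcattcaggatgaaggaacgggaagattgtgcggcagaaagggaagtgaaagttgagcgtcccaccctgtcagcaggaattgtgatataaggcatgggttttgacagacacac

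Macrophage-like cells were found by clustering the cells of each age without the 10 members, and clusters were named from markers that do not include them (C1qa, C1qb, C1qc, Csf1r, Cd163, Mrc1 and others). They numbered 749, 854, 885, 771 and 1052 in the E16.5 libraries and 1275, 1491, 701 and 727 in the P3 libraries. Their share of retained cells was 4.56%, 4.65%, 3.52%, 4.82% and 4.41% at E16.5 and 6.56%, 9.43%, 4.93% and 4.62% at P3. The means were 4.39% ± 0.508 (SD, n = 5) and 6.39% ± 2.20 (SD, n = 4), the ranges overlapped, and the difference of 1.99 percentage points had a two-sided exact permutation p of 0.0476. Leaving out any library other than D took the exact permutation p above 0.05 (0.0571 to 0.107), and the smallest difference was 0.980 points, without library B, or 0.384 points without libraries A and B. It did not pass without the neutrophil-rich P3 cluster either (1.61 points, exact permutation p = 0.222).

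Red cell genes made up a large part of the RNA counted in these cells. Globin took a median of 25% to 45.3% of UMIs per macrophage-like cell at E16.5 and of 0.451% to 1.12% at P3. The 12 erythroid markers detected made up between 21.1% and 40.7% of the summed UMIs in fetal and between 15.7% and 29.1% in P3 libraries. The 16 general macrophage genes (among them Csf1r, Cd68, Mrc1 and the C1q genes) took 0.745% to 0.942% and 1.97% to 2.52% of UMIs. Neutrophil markers took from 0.0616% to 0.217% in fetal and from 1.16% to 3.36% in P3 libraries, mostly through a P3 cluster of 248 cells in which they made up 26.2%. 3 scales are therefore given. CPM, a gene's UMIs scaled to a fixed total, refer to all UMIs of the macrophage-like cells. The same UMIs per 1000 UMIs of the 16 general macrophage genes refer to those genes and not to all macrophage RNA. In cells with at most 10% globin UMIs these 16 genes also rose, from 1.25% to 1.51% of UMIs at E16.5 to 2.48% to 3.22% at P3. A member that rose less than they did is therefore lower on this scale. Values in cells with at most 10% globin UMIs, a fetal share of 3.62% to 14.3% and a P3 share of 57.3% to 69.6% of macrophage-like cells, refer to the cells least loaded with globin.

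Of the 10 genes, 9 had their highest level in macrophage-like cells. This is a description, because they are known macrophage genes and the class was named from other macrophage markers. The class was not split into Kupffer cells and other macrophages. At both ages Clec4f, Vsig4, Timd4, Cd5l, Marco, Adgre1, Nr1h3, Spic and Fcna had their highest level in macrophage-like cells, and every macrophage-like library lay above every library of the next class. The next class was endothelial-like for all of them at E16.5, at a level lower by 5.10-fold (Nr1h3) to 8.88-fold (Spic), and at P3 for all but Nr1h3, for which it was hepatocyte-like cells (34.8 CPM ± 8.20, SD, n = 4). Macrophage-like cells held 56.3% to 92.3% of all UMIs of these 9 genes in named classes, library by library. Cd5l, for example, averaged 1166 CPM ± 330 (SD, n = 5) in macrophage-like and 159 CPM ± 54.6 in endothelial-like cells at E16.5. The endothelial-like cells also held the general macrophage genes, from 0.170% to 0.247% of UMIs in fetal and from 0.322% to 0.395% in P3 libraries, and the part of macrophage RNA in the endothelial-like values was not tested.

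Id3, which encodes an inhibitor of basic helix-loop-helix factors, did not share this pattern. It was highest in endothelial-like cells, at 401 CPM ± 21.0 (SD, n = 5) at E16.5 and 632 CPM ± 91.8 (SD, n = 4) at P3, and macrophage-like cells ranked the fifth among the classes at both ages. At E16.5 mesenchymal-like, monocyte-like and B-like cells stood between them, and monocyte-like (172 CPM ± 32.7), B-like (134 CPM ± 21.7) and macrophage-like cells (117 CPM ± 9.70) did not separate from their neighbours in that order. At P3 dendritic-like cells (544 CPM ± 125), whose range overlapped with the endothelial-like one, came next. Macrophage-like cells held 11.6% to 23.5% of Id3 UMIs.

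**Figure D1:**
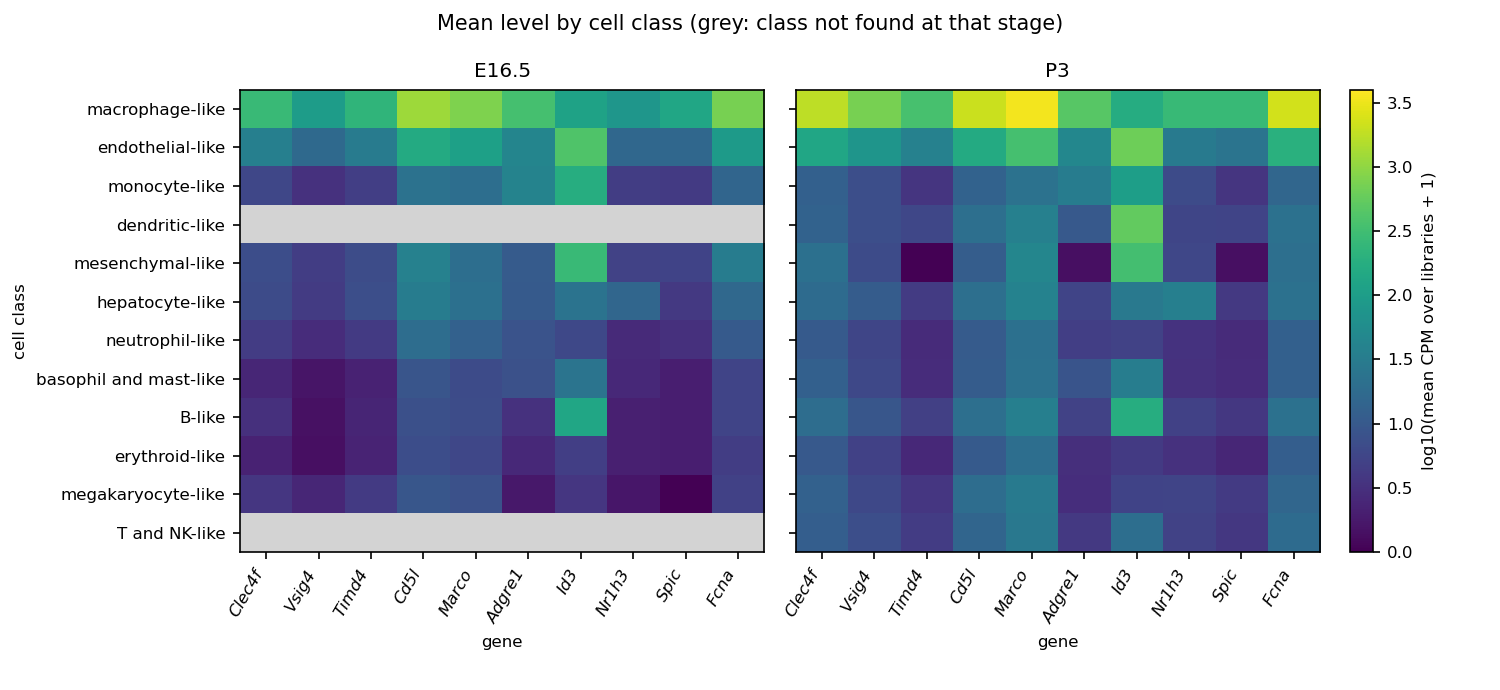
Mean CPM of each of the 10 genes in each named cell class at E16.5 (5 libraries) and P3 (4 libraries), as log10(mean CPM + 1) in colour, with grey for a class not found at that age. Macrophage-like cells are highest for 9 genes at both ages, and Id3 is highest in endothelial-like cells.

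From E16.5 to P3, 6 of the 10 genes rose in macrophage-like cells and 0 fell: Clec4f, Vsig4, Marco, Nr1h3, Fcna and Spic. UMI sums per library were tested with edgeR (quasi-likelihood, Benjamini-Hochberg adjusted), called at an adjusted p under 0.05. It called 53.8% of 10752 genes, 27.2% higher and 26.6% lower at P3, so most of the transcriptome of these cells moved between the ages. The median log2 fold change was 1.02 over the members and 0.01 over all genes. With library totals in place of TMM factors the median of all genes moved to 0.28, 3662 genes were higher and 1577 lower, and 9 members were higher, all but Adgre1.

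Among the surface receptors, Clec4f and Vsig4 changed most. Clec4f, a C-type lectin used as the defining mark of Kupffer cells, had 309, 283, 272, 379.8 and 133 CPM at E16.5 and 1529, 2205, 1831 and 1468 CPM at P3. The lowest P3 library was above the highest fetal one, and Jag1Ndr/Ndr replicate 2 was the lowest of all. Its log2 fold change was 2.34 ± 0.28 (SE, edgeR's quasi-likelihood test, adjusted p = 4.68e-05). Vsig4, a complement receptor that binds opsonised particles, had 162, 72.0, 73.1, 133 and 44.0 CPM and then 714, 903, 582 and 693 CPM. The ages again did not overlap, and the fetal libraries spread more widely than the P3 libraries did in proportion. Its log2 fold change was 2.58 ± 0.34 (SE, edgeR, adjusted p = 8.04e-05).

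Marco, a scavenger receptor for bacteria and particles, had 836, 921, 696, 561 and 1027 CPM at E16.5 and 2794, 3416, 2323 and 5298 CPM at P3. Every P3 library was above every fetal one, with library D far above the others, and the log2 fold change was 1.78 ± 0.22 (SE, edgeR, adjusted p = 4.76e-05). Timd4, which binds phosphatidylserine on dying cells, had 318, 250.5, 159, 195 and 215 CPM and then 250.1, 379, 300.3 and 474 CPM. The ages overlapped, and the log2 fold change of 0.31 ± 0.17 did not pass the test (edgeR, adjusted p = 0.140). Adgre1, which encodes the macrophage antigen F4/80, had 352, 453, 250.5, 324 and 328 CPM at E16.5 and 368, 410.4, 431 and 608 CPM at P3. These ranges overlapped too, and the log2 fold change was 0.11 ± 0.13 (SE, edgeR, adjusted p = 0.504).

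The secreted proteins differed from each other. Fcna, the plasma lectin ficolin A, had 856, 633, 619.8, 567 and 955 CPM at E16.5 and 2350, 2150, 2317 and 2266 CPM at P3. The 4 P3 libraries lay close together, above all fetal ones, and the log2 fold change was 1.35 ± 0.18 (SE, edgeR, adjusted p = 0.000112). Cd5l, an apoptosis inhibitor secreted by macrophages and a known target of liver X receptors, had 1536, 1437, 841, 823 and 1193 CPM and then 1169, 1951, 2169 and 2813 CPM. Library A lay inside the fetal range while the other 3 P3 libraries lay above it. The log2 fold change of 0.49 ± 0.20 missed the threshold (SE, edgeR, adjusted p = 0.0612), and it passed in 7 of 26 alternatives, among them without library A and without Jag1+/+ replicate 1 (0.59, adjusted p = 0.0390). Timd4 also passed without Jag1+/+ replicate 1 (0.44, adjusted p = 0.0352).

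Among the transcription factors, Nr1h3, which encodes liver X receptor alpha, had 66.8, 97.6, 68.2, 65.9 and 80.7 CPM at E16.5 and 208, 308, 218 and 342 CPM at P3. All P3 libraries were above all fetal ones, and the log2 fold change was 1.51 ± 0.14 (SE, edgeR, adjusted p = 7.63e-06). Spic, a heme-responsive ETS factor needed by iron-recycling macrophages, had 147, 139, 102, 137 and 137 CPM and then 235, 273, 243 and 304 CPM. The ages did not overlap, and the change was smaller, at 0.69 ± 0.11 (SE, edgeR, adjusted p = 0.000391). Id3 had 120, 101, 116, 128 and 118 CPM at E16.5 and 148, 166, 183 and 171 CPM at P3. Its CPM ranges did not overlap, yet with edgeR's scaling the log2 fold change was only 0.19 ± 0.16 (SE, adjusted p = 0.344).

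**Figure D2:**
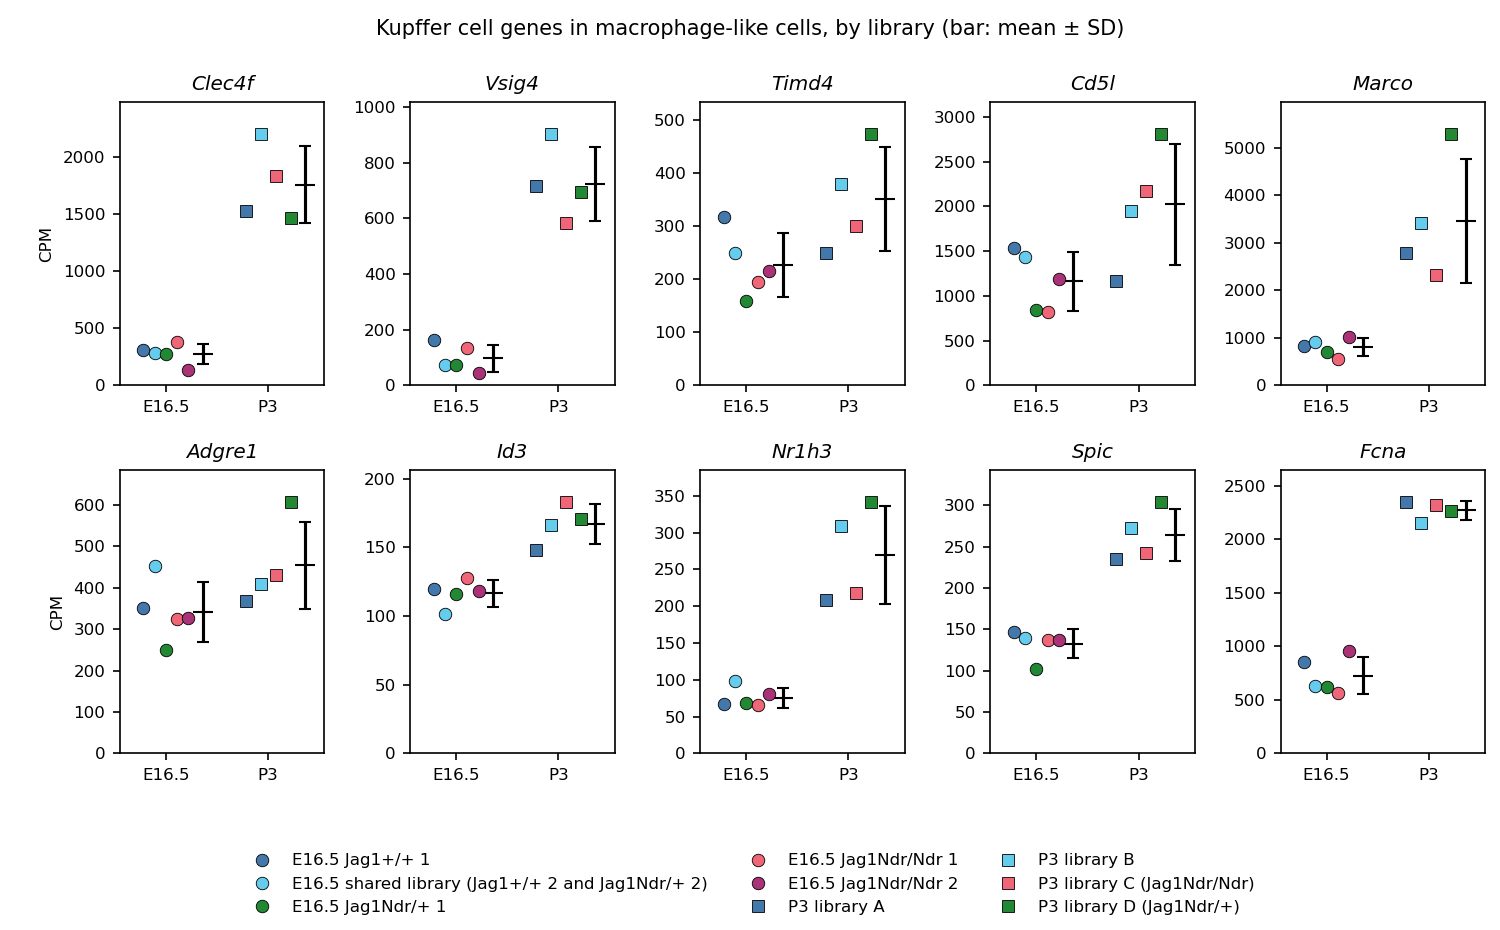
CPM of each gene in macrophage-like cells, 1 point per library (circles for E16.5, squares for P3, coloured by library), with the mean and SD as a bar, on linear axes that start at 0. For 7 genes the P3 points lie above all E16.5 points, and for Timd4, Cd5l and Adgre1 they overlap.

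The direction of the change depended on the reference for Timd4, Adgre1, Id3, Spic and Cd5l. How many of all genes separated by age was not counted, and 53.8% of them were called in the main fit. The counts of members without overlap are therefore descriptive. By CPM 7 members were higher at P3 without overlap and 3 overlapped. Per 1000 UMIs of general macrophage genes, 2 were higher without overlap, 2 were lower and 6 overlapped. Clec4f had a fetal range of 16.8 to 44.2 and a P3 range of 72.8 to 87.4 on this scale, and Vsig4 ranges of 5.58 to 17.2 and 27.5 to 35.8. Adgre1 was lower at P3, with a fetal range of 33.6 to 51.5 and a P3 range of 16.3 to 30.9, and so was Id3, with 11.5 to 15.6 and 6.59 to 8.68. For Id3 this held for the pooled cells but not between the clusters rich in erythroid markers, whose values are given below. When the 3 C1q genes, which hold a large part of that sum, were left out of the reference, 5 members were higher without overlap (Clec4f, Vsig4, Marco, Nr1h3 and Fcna) and Adgre1 alone was lower.

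The same edgeR test scaled to the general macrophage genes moved the median of all genes to -1.06 on the log2 scale and called 2.52% of genes higher and 72.9% lower at P3. On it 3 members were higher, Vsig4 (1.56, adjusted p = 0.000218), Clec4f (1.30, adjusted p = 0.000228) and Marco (0.75, adjusted p = 0.0239). The 3 members called lower were Adgre1 (-0.93, adjusted p = 0.00187), Id3 (-0.85, adjusted p = 0.000629) and Timd4 (-0.72, adjusted p = 0.0118), all of them above the median gene. Their fall is thus one relative to the general macrophage genes and not to the other genes. Nr1h3 (0.46), Fcna (0.28), Spic (-0.36) and Cd5l (-0.54) did not pass. Clec4f, Vsig4 and Marco thus passed as higher at P3 in edgeR under each scaling that was run, although Marco overlapped between ages per 1000 macrophage gene UMIs, where library D was the highest.

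**Figure D3:**
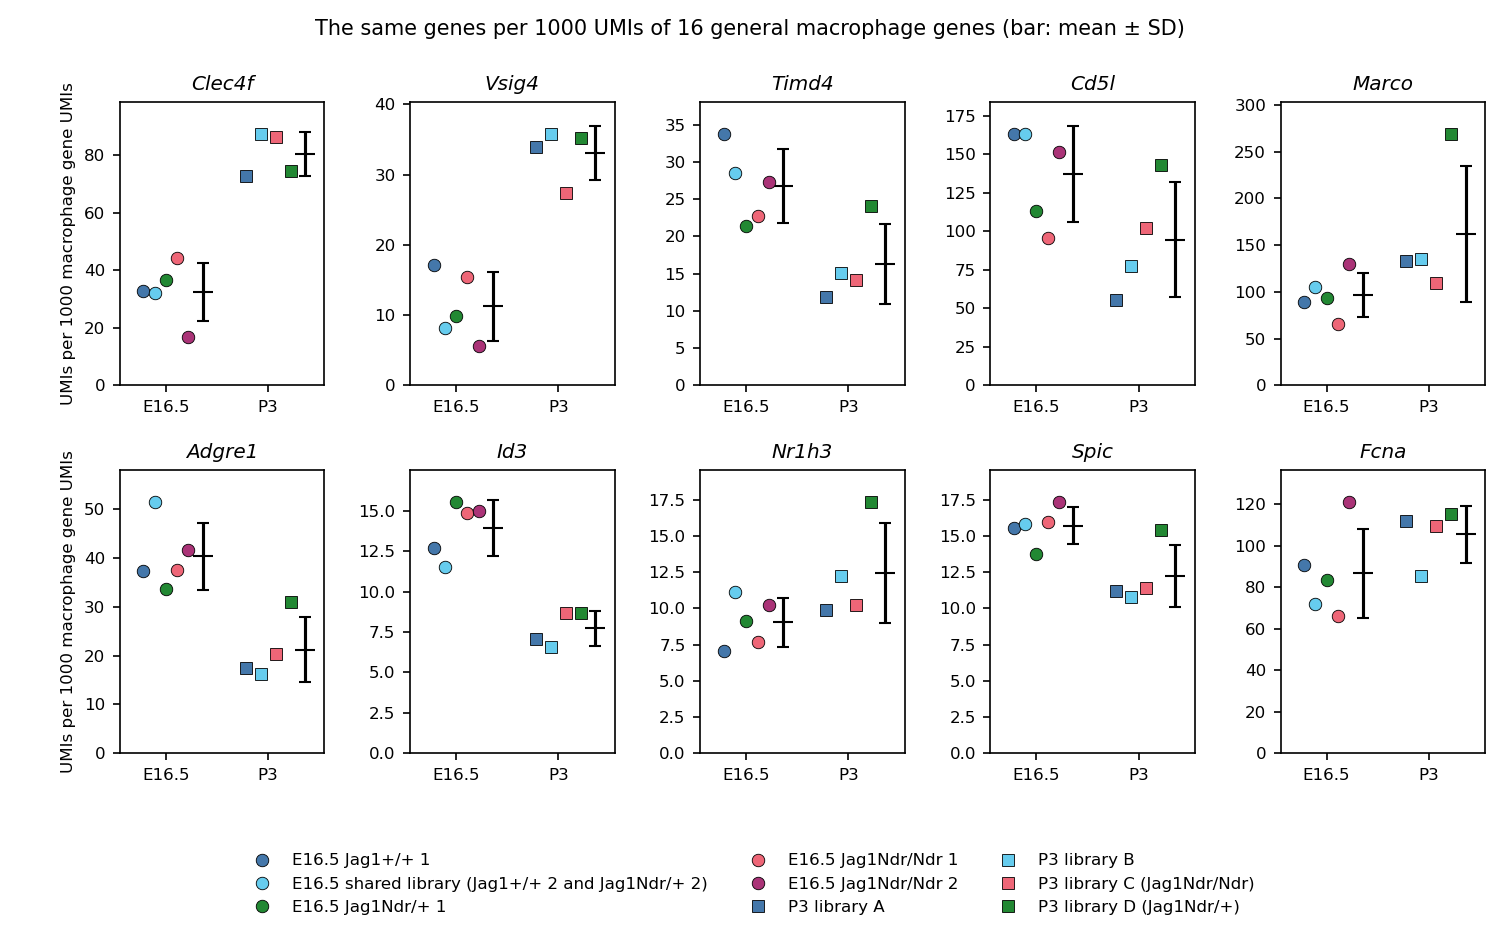
UMIs of each gene per 1000 UMIs of the 16 general macrophage genes in macrophage-like cells, 1 point per library (circles for E16.5, squares for P3), with the mean and SD as a bar, on linear axes that start at 0. Clec4f and Vsig4 are higher at P3 and Adgre1 and Id3 lower, without overlap, while by CPM Adgre1 overlapped and Id3 was higher.

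In cells with at most 10% globin UMIs the same 6 genes rose and 0 fell, beside 22.1% of 9639 genes called higher and 23.3% lower. Other markers moved in these cells too: neutrophil markers took from 0.0428% to 0.188% of UMIs in fetal and from 1.82% to 4.89% in P3 libraries (11 of 14 rose), erythroid markers from 5.85% to 7.47% and from 0.49% to 1.34%, while of 10 hepatocyte markers 6 rose and 2 fell and of 13 endothelial markers 4 rose and 2 fell. Their part in the result was not tested. The log2 fold changes of the members were 2.85 for Vsig4, 2.53 for Clec4f, 1.81 for Marco, 1.34 for Fcna, 1.31 for Nr1h3 and 0.52 for Spic. Mean CPM of Clec4f in these cells went from 395 ± 160 (SD, n = 5) to 2353 ± 412 (SD, n = 4). In the cluster with the least globin at each age 6 members rose too and 0 fell, where 22.2% of 9649 genes were called higher and neutrophil markers took at most 0.164% and 0.232% of UMIs. The changes of Clec4f, Vsig4, Marco and Fcna were therefore as large in the cells with little globin as in all macrophage-like cells. By cluster, Clec4f had 163 CPM ± 45.5 in the fetal cluster with erythroid markers at 40.1% of UMIs and 469 CPM ± 185 in the one with 12.6% (SD, n = 5). At P3 it had 876 CPM ± 96.4 in the cluster with 45.9% and 2712 CPM ± 537 in the one with 0.803% (SD, n = 4). Per 1000 macrophage gene UMIs, a scale that leaves erythroid RNA out by construction, the fetal clusters had 34.5 ± 8.53 and 31.5 ± 10.6 and these P3 clusters 78.8 ± 5.46 and 80.5 ± 8.46. On this scale Id3 did not fall between the clusters rich in erythroid markers, at 7.17 ± 1.59 (E16.5) and 7.56 ± 1.485 (P3, SD). Between the clusters with the least globin Id3 went from 17.6 ± 2.51 to 7.55 ± 1.20. Spic had 10.6 ± 1.60 and 12.1 ± 1.715 in the first pair and 18.4 ± 0.98 and 12.2 ± 2.47 in the second. Adgre1 had 35.5 ± 8.86 and 20.6 ± 6.40, then 43.0 ± 5.84 and 21.5 ± 6.79.

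**Figure D4:**
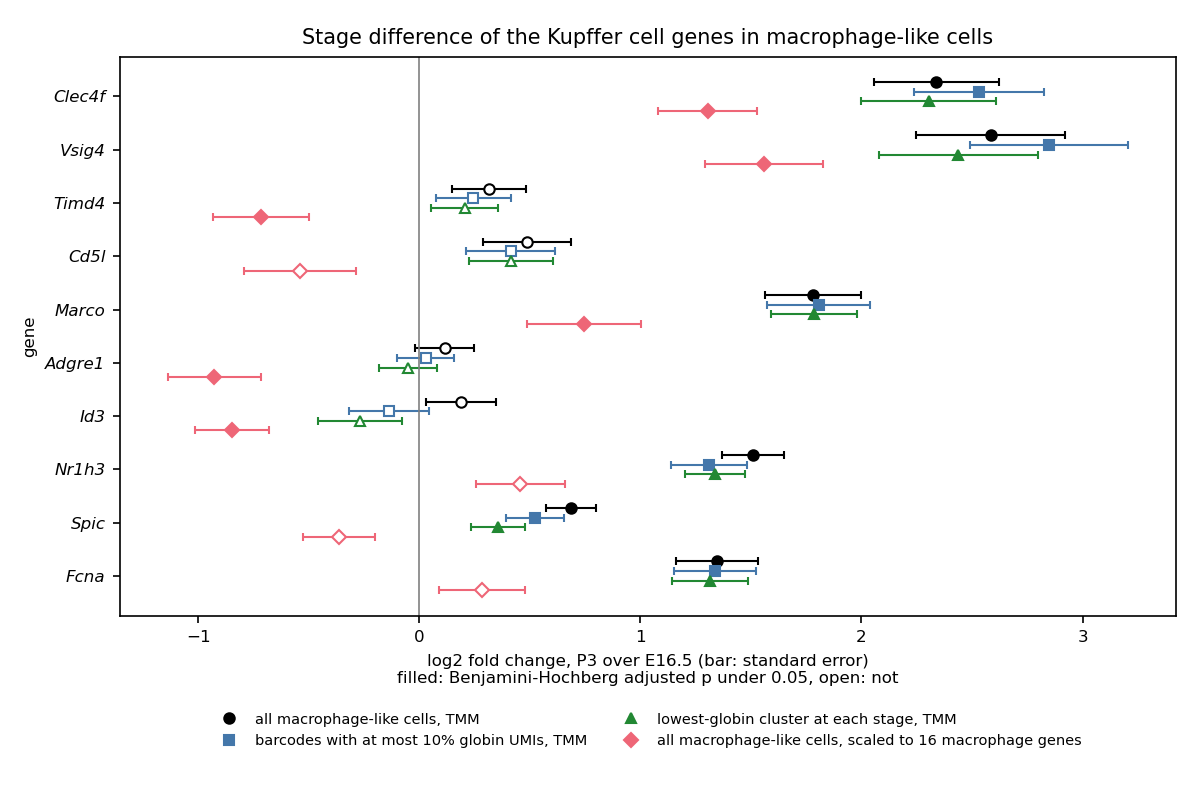
Log2 fold change from E16.5 to P3 of each gene in macrophage-like cells with its standard error, from 4 edgeR fits: all cells, cells with at most 10% globin UMIs, the cluster with the least globin at each age, and all cells scaled to the general macrophage genes. Filled symbols have an adjusted p under 0.05. Clec4f, Vsig4 and Marco are above 0 in all fits, and Adgre1, Id3, Timd4, Spic and Cd5l change sign between fits. Without the macrophage gene scaling, 10 members are above 0 in all cells, 9 in cells of low globin and 8 in the cluster with the least globin.

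The number of members seen in a cell rose as well. Cells were thinned to 2000 UMIs each, so that depth was equal. This kept all macrophage-like cells at E16.5, and 1149, 1210, 701 and 572 of those at P3. Macrophage-like cells under 2000 UMIs were thus found only in libraries A, B and D, so the lower limit of depth differed between libraries. After thinning, a macrophage-like cell had a UMI of 2 or 3 of the 10 genes at the median at E16.5, and of 5 or 6 at P3. Among cells with at most 10% globin UMIs the medians were 5 or 6 and 7, so at this equal depth the gap was smaller there. Cells with a Clec4f UMI made up 26.4% ± 7.60 (SD, n = 5) at E16.5 and 72.4% ± 3.55 (SD, n = 4) at P3, and without thinning 45.2% ± 8.84 and 81.6% ± 3.54. Vsig4 was seen in 10.0% ± 4.35 and 50.5% ± 4.80 of cells. For 8 genes every P3 library was above every fetal one, at the smallest two-sided exact permutation p that 5 against 4 libraries can give (0.0159, 0.0198 adjusted over the 10 genes), and Adgre1 (31.4% to 48.3%) and Cd5l (59.0% to 74.0%) had exact permutation p-values of 0.0318 and 0.0476. Such shares were computed for the members only, so no figure over all genes stands beside them. In erythroid-like cells, which should lack the members, the fetal means lay between 0.107% and 1.12% and the P3 means between 0.245% and 3.56%.

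Within the cells of low globin, thinned in the same way, the shares of 5 genes were higher at P3: Clec4f (46.6% to 86.0%), Vsig4 (18.6% to 64.2%), Marco (70.3% to 87.3%), Nr1h3 (26.5% to 46.9%) and Fcna (79.9% to 90.9%), each with an adjusted exact permutation p of 0.0318. Spic went from 37.6% to 46.3% (adjusted exact permutation p = 0.0794) and Timd4 from 50.9% to 57.2% (0.218). Adgre1, at 64.1% and 66%, Id3, at 35.3% and 32.9%, and Cd5l, at 82.8% and 87.96%, did not pass. Without thinning the result in these cells was different, and so was their depth, with library medians of 13850 to 20080 UMIs in the fetal cells against 3306 to 4982 in the P3 cells. The median number of members seen per cell was then 9 in every fetal library and 8, 8, 9 and 8 in the P3 libraries. Vsig4 was still higher at P3 (40.5% and 71.0%), Clec4f (80.3% and 90.3%), Marco, Fcna and Cd5l did not pass, and 5 genes were lower at P3, each with an adjusted exact permutation p of 0.0265. They were Adgre1 (97.7% and 80.4%), Timd4 (92.6% and 75.4%), Spic (87.8% and 64.4%), Id3 (85.8% and 50.7%) and Nr1h3 (81.4% and 66%), whose direction thus turned with the depth setting. Among all macrophage-like cells, of any globin share and thinned to 2000 UMIs, Clec4f and Vsig4 also met in the same cells. At P3 56.3% to 68.3% of cells with a Clec4f UMI had a Vsig4 UMI, against 13.4% to 23.6% of the cells without one. At E16.5 the figures were 10.0% to 26.8% and 4.50% to 10.3%. Other pairs of members are not given here, so no trait particular to this pair is read from these values. Nor are the shares in cells of low globin given, and the part of the globin load was not tested.

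**Figure D5:**
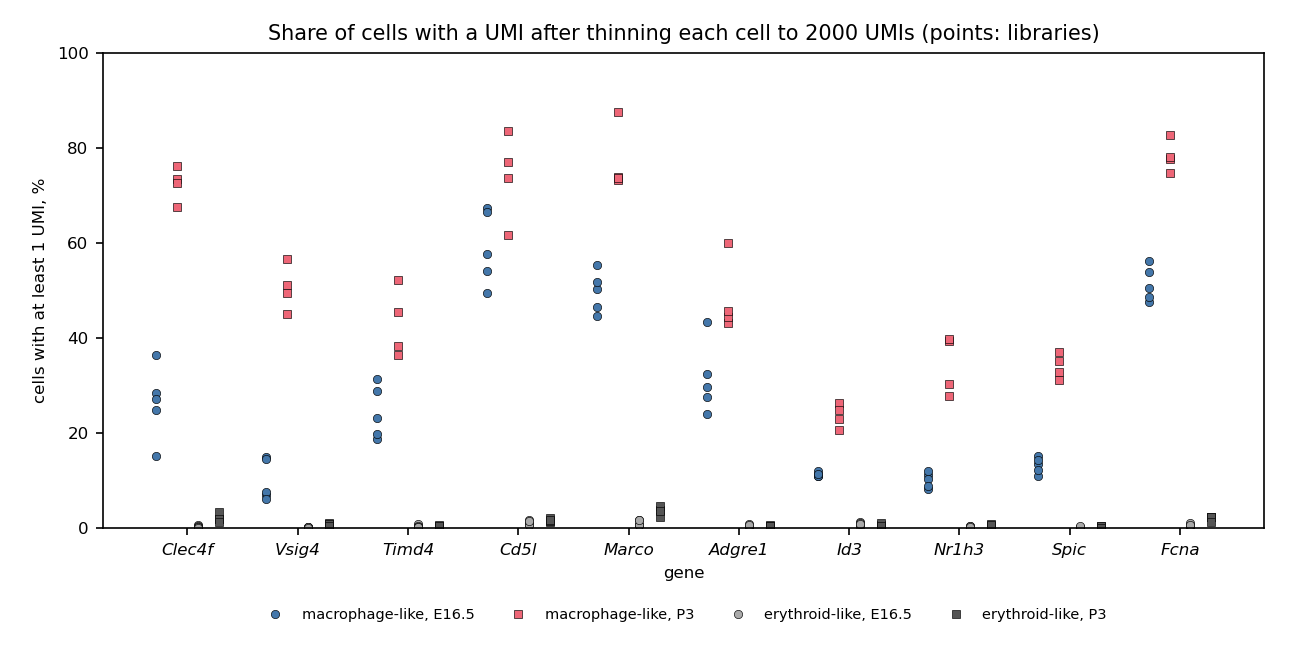
Percentage of macrophage-like cells with at least 1 UMI of each gene after thinning to 2000 UMIs per cell, 1 point per library, for E16.5 (n = 5) and P3 (n = 4), with erythroid-like cells for comparison. Clec4f goes from 26.4% to 72.4% and Vsig4 from 10.0% to 50.5%, and erythroid-like cells stay under 5%.

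Summed over all passing barcodes, 7 members were higher at P3 and 0 lower (edgeR's quasi-likelihood test, 54.0% of 14504 genes called, 27.6% higher). In these sums more cells of a type and more RNA per cell cannot be told apart. The 7 were the same 6 genes and Cd5l, whose log2 fold change was 0.59 ± 0.22 (SE, edgeR, adjusted p = 0.0390) and which lost its call in 7 of 16 alternatives, with an adjusted p of up to 0.119 (without library B). Clec4f went from 11.9 CPM ± 3.67 (SD, n = 5) to 111 ± 50.03 (SD, n = 4), a log2 fold change of 2.57, and Vsig4 from 4.28 ± 2.01 to 46.7 ± 21.3, a log2 fold change of 2.79. Timd4 (0.47), Adgre1 (0.18) and Id3 (0.03) did not pass. With library totals alone the median of all genes was 0.61, 85.6% of calls were higher at P3 and all 10 members were among them.

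Members also rose in other classes, 9 of them in B-like cells (all but Id3). In endothelial-like cells 6 rose: Clec4f, Vsig4, Marco, Fcna, Nr1h3 and Id3, which had its highest level in this class. In erythroid-like cells 4 rose (Clec4f, Vsig4, Marco and Fcna), and Id3 was called lower with edgeR's scaling (-0.98). Its CPM there was low and overlapped between the ages, at 3.58 ± 1.31 (SD, n = 5) and 3.07 ± 0.738 (SD, n = 4). Clec4f rose in B-like (log2 fold change 2.89), erythroid-like (2.16) and endothelial-like cells (1.79), and Vsig4 rose in the same 3 classes (3.94, 2.56 and 2.12), by edgeR with Benjamini-Hochberg adjustment. These tests called 52.4%, 52.2% and 32.7% of genes in the 3 classes. In erythroid-like cells the Clec4f level was 1.20 CPM ± 0.371 (SD, n = 5) at E16.5 and 9.22 ± 3.90 (SD, n = 4) at P3, far below the macrophage-like level. B-like cells held only 1.24% to 1.93% of the Clec4f UMIs in named classes at E16.5 and 1.95% to 2.64% at P3. The part of free RNA in the B-like, erythroid-like and endothelial-like values was not tested. Nr1h3 rose in hepatocyte-like cells by 1.50 (adjusted p = 1.88e-05, edgeR, 42.2% of genes called). In monocyte-like cells, where 48.7% of genes were called, Id3 (-0.86), Cd5l (-0.95) and Adgre1 (-0.47) fell. In macrophage-like cells the same genes had 0.19, 0.49 and 0.11. By mean CPM in monocyte-like cells, Nr1h3 was higher at P3 without overlap (1.61-fold). With overlap, Clec4f (2.41-fold), Vsig4 (2.72), Marco (1.14) and Fcna (1.04) were higher and Timd4 (0.691) and Spic (0.824) lower. Dendritic-like cells were a separate class only at P3, so the monocyte-like class may hold different cells at the 2 ages. Neutrophil-like cells (49.9% of genes called) had Clec4f, Vsig4 and Marco higher and Adgre1 (-1.05), Cd5l (-0.96) and Timd4 (-0.84) lower. The basophil and mast-like class (49.4% of genes called) was not comparable between ages: Gzma and Ctla2a were among the leading genes of its 1708 fetal cells, a finer clustering named 221 fetal cells basophil and mast-like and 1353 T and NK-like, and at P3 T and NK-like cells were a class of their own. The megakaryocyte-like cells (49.3% of genes called) held 0 to 10 UMIs of each member over the 5 fetal libraries, too few for a comparison.

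Other genes of the macrophage programme were taken from fixed lists. Of 11 further Kupffer cell genes tested, 6 rose and 0 fell, beside 27.2% of all genes higher and 26.6% lower, with a median log2 fold change of 0.40, among them the complement component gene C6 (25.9 CPM ± 9.96 to 98.4 ± 21.9, log2 fold change 1.63) and the folate receptor gene Folr2 (1.15). Of 16 general macrophage genes 13 rose and 0 fell (median 1.06), led by the hemoglobin scavenger receptor gene Cd163 (1.97) and C1qa (1104 CPM ± 101 to 4823 ± 1077, log2 fold change 1.80). Of 16 macrophage transcription factors and signal mediators 6 rose and 2 fell: Spi1 went from 92.7 CPM ± 2.67 to 405 ± 64.6 (1.80), the liver X receptor partner Rxra (1.10) rose, and Cebpb (-1.17) and Id2 (-0.47) fell. Scaled to the general macrophage genes, where 72.9% of all genes were lower, 0 of the 11 further Kupffer cell genes were higher and 7 were lower, a share near that of all genes. The transcription factors and mediators had 1 higher and 10 lower on that scale. Spi1 (0.75) and Cd163 (0.87) were still higher, while Rxra (0.02) did not pass. In the cells of low globin the further Kupffer cell genes had 4 higher and 1 lower.

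The target genes of liver X receptors did not move together with Nr1h3. Of 9 tested, 4 rose and 5 fell (median log2 fold change -0.55). The phospholipid transfer protein gene Pltp (103 CPM ± 31.2 to 371 ± 46.2, log2 fold change 1.57), Apoe (1.08) and Lpcat3 (0.70) rose, whereas the desaturase gene Scd2 (-1.84), the cholesterol exporter gene Abca1 (-0.88) and Mylip (-0.68) fell. In the cells of low globin the counts were again 4 and 5, and in the cluster with the least globin 3 and 5. Of 12 heme and iron genes, which include the functional neighbours of Spic, 6 rose and 2 fell: Cd163, Blvra (0.87) and the heme transporter gene Slc48a1 (0.70) rose, and the transferrin receptor gene Tfrc (-2.83), an erythroid marker too, fell. Of the niche ligands and receptors, 10 of 16 could be tested, 5 rose and 1 fell, with Tgfb1 (1.80), Csf1r (1.33) and Acvrl1 (1.19) as the leading ones. Of 12 cell cycle genes 11 fell and 0 rose (median -1.23), Cdk1 by 1.85 on the log2 scale, and of 7 MHC class II genes 4 rose, with Cd74 at 1.93. The main counts stand beside 27.2% of all genes higher and 26.6% lower, and they too depended on the scaling. On the scale of the general macrophage genes 2.52% of all genes were higher and 72.9% lower. Scaled to the general macrophage genes, 1 was higher in each of the liver X receptor, heme and iron, and niche lists, and 5, 8 and 6 were lower, while of the MHC class II genes 1 was higher and 0 were lower. In the cells of low globin 3 of the 6 MHC class II genes tested rose.

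Markers of other cells moved with these lists in macrophage-like cells. Of 14 neutrophil markers 11 rose (median 3.88), of 13 endothelial markers 5 rose (0.49), of 10 monocyte genes 4 rose and 2 fell (0.08; in the cells of low globin 1 and 2), of 12 erythroid markers 7 fell (-1.57) and of 10 hepatocyte markers 4 fell (-0.08). Of 9 erythroblastic island genes, of which Klf1 and Epor are erythroid, 4 rose and 2 fell (1 and 5 scaled to the general macrophage genes). Without the P3 cluster of neutrophil-rich cells 7 members were higher, the same 6 and Cd5l. The share of all genes called without that cluster is not given here, so this count has no background of its own. The fit with that cluster called 27.2% of all genes higher.

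Genotype was compared at E16.5, where the 2 Jag1Ndr/Ndr libraries could be set against the 3 libraries without that label. No member was called, and 0% of 10956 genes were called in macrophage-like cells by the edgeR quasi-likelihood fit, Benjamini-Hochberg adjusted. At an unadjusted p under 0.05 there were 158 genes, and 1 gene was called by DESeq2. Log2 fold changes ran from -0.32 ± 0.23 (SE) for Cd5l to 0.09 ± 0.25 for Id3, all with an adjusted p of 1. For Clec4f the value was -0.15 ± 0.43 and for Vsig4 -0.18 ± 0.52, so the 2 genes that differed most between ages were also the ones with the widest errors here. By CPM the genotypes overlapped for all 10 members. Per 1000 macrophage gene UMIs 9 overlapped, and Spic did not, with 15.98 and 17.4 in the homozygous libraries and at most 15.8 in the others. For 2 against 3 libraries 0.2 is the smallest exact permutation p, and the share of all genes that separate was not counted. No genotype difference is read from this value.

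The 2 homozygous fetal libraries differed from each other, also in sex markers: replicate 2 had 598 CPM of Xist, as Jag1Ndr/+ replicate 1 had 306 CPM, and the other 3 fetal libraries had Ddx3y in its place. With that status as a covariate the genotype log2 fold change in macrophage-like cells was -0.22 ± 0.44 for Clec4f and -0.24 ± 0.47 for the X-linked Vsig4 (SE, edgeR), and no member was called. All 4 P3 libraries had Ddx3y (28.9 to 35.4 CPM), and Xist is not in the P3 gene list. Clec4f had 379.8 CPM in replicate 1, the highest of the 5 libraries, and 133 CPM in replicate 2, the lowest. Vsig4 had 133 and 44.0 CPM in the same pair. Marco went the other way, with 561 CPM in replicate 1, the lowest, and 1027 CPM in replicate 2, the highest, and so did Fcna (567 and 955 CPM). Leaving out replicate 2 gave a genotype change of 0.47 for Clec4f and 0.46 for Vsig4, and leaving out replicate 1 gave -1.23 and -1.30, so the sign was set by which of the pair was kept. The share of macrophage-like cells was 4.62% ± 0.285 (SD, n = 2) in Jag1Ndr/Ndr and 4.24% ± 0.625 (SD, n = 3) in the others (exact permutation p = 0.6, where 0.2 is the smallest this design allows). Over all passing barcodes 0 members and 0% of 16262 genes were called (166 with an unadjusted p under 0.05, DESeq2 5). In each of the fixed gene lists 0 genes were called for genotype.

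At P3 libraries C and D carry the labels Jag1Ndr/Ndr and Jag1Ndr/+, 1 library each, and the matrix of library C also held 19927 barcodes found under Jag1+/+ replicate 1, so its genotype rests on that label alone. No test was made, and the intervals cover counting error only. Marco had 2323 CPM in library C and 5298 in library D, a ratio of 0.439 (95% interval 0.427 to 0.450). Timd4 (0.633), Nr1h3 (0.636), Adgre1 (0.709), Cd5l (0.771), Spic (0.798) and Vsig4 (0.840) were lower in library C as well. Clec4f was higher there, at 1831 against 1468 CPM, a ratio of 1.25 (95% interval 1.20 to 1.30). Fcna (1.02, 0.990 to 1.06) and Id3 (1.07, 0.954 to 1.21) had intervals that hold 1. For Marco, library D was also far above libraries A and B (2794 and 3416 CPM), whose genotype is unclear, so its distance is to all 3 other P3 libraries and not to library C alone.

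Finally, for each member the gene with the most similar profile was sought over 97 profiles of 12 cell classes in 9 libraries, among 5131 genes, by the Pearson correlation of log2(CPM + 1). These were the genes with a mean of at least 20 CPM in macrophage-like cells. The C1q genes were also among the markers that named that class, so a high correlation with members high in it was built in. The profiles share libraries and depth as well, so the values are descriptive. Complement C1q genes were closest to 5 members: C1qa to Clec4f (r = 0.959) and Vsig4 (0.947), C1qb to Marco (0.953), and C1qc to Cd5l (0.947) and Fcna (0.977). Timd4 was closest to the heme oxygenase gene Hmox1 (0.934), Adgre1 to the fractalkine receptor gene Cx3cr1 (0.914), Nr1h3 to the apoptotic-cell receptor gene Mertk (0.905) and Spic to the transporter gene Abcc3 (0.916). Id3 had the loosest match, Epb41l2 (0.883).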

How the data were processed

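The deposited files hold whole-number UMI counts per gene and barcode, which the authors made with 10x software, version 3.1.0 at E16.5 and 3.0.2 at P3 per the file headers. The submitters' processing notes name mm10, Cell Ranger 2.1.1, R 4.1.2 and Seurat. Here, counts were read with Python 3.11.15. Doublets were called with Scrublet in scanpy 1.11.5 per library and removed (9.86% to 13.4% of barcodes at E16.5 and 4.11% to 9.50% at P3). The cells of each age were clustered (2000 variable genes without the members, 30 principal components, Leiden resolution 1). UMI counts were summed per library and class and tested with edgeR 4.0.16 in R 4.3.3 (TMM, filterByExpr, quasi-likelihood), with Benjamini-Hochberg adjustment over all pairs of class and gene in a contrast. DESeq2 1.42.0 was an alternative. In simulated counts with the macrophage-like stage design (10631 genes), 77.3% of genes changed 2-fold and 100% of those changed 4-fold were recovered, with 6 false calls. For the genotype design (10821 genes) the shares were 44.9% and 99%, with 13 false calls. The simulations changed few genes (97 by 2-fold and 99 by 4-fold for stage), up and down alike, with a common dispersion for all genes. In the data 53.8% of genes were called for stage, so these rates do not give the error rate of the calls made here.

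Shares used exact permutation tests (scipy 1.17.1, two-sided). The intervals at P3 are exact and cover counting error. Named genes were all 10 members, up to 3 called genes per direction and list with the largest log2 fold change and a mean of at least 20 CPM, and the closest profile of each member. The members and lists were chosen with earlier results of these data known. Alternatives covered scaling, filters, globin limits, clusters, doublets, depth and leaving out libraries. Of the list genes the rule names, 1 is not reported here.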

Additional observations from a re-analysis of the deposited data

Results flagged for a closer look

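Of 42 groups of 4 or 5 values checked for a library far from the others, 3 had one, and chance alone gives about 1 in 20 groups. Library D, the heterozygous P3 library, had 269 Marco UMIs per 1000 general macrophage gene UMIs, where libraries A, B and C had 133, 135 and 109.5. The same library had 15.4 Spic UMIs per 1000, where the others had 11.2, 10.8 and 11.4. At E16.5 Jag1Ndr/+ replicate 1 had 102 CPM of Spic in macrophage-like cells, while the other 4 libraries had 137 to 147 CPM. That library also had the highest median globin share of macrophage-like cells (45.3%), and per 1000 macrophage gene UMIs its Spic value was 13.8, still the lowest of the 5. The part of globin RNA in it was not tested.

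Id3 moved differently with age in 2 classes. By CPM it was higher at P3 than at E16.5 in macrophage-like cells and lower in monocyte-like cells, without overlap in either. Dendritic-like cells were a class of their own only at P3, so the monocyte-like class may not hold the same cells at both ages. The log2 change with age in macrophage-like cells minus that in monocyte-like cells was 1.23. Id3 was singled out for this separation, so the difference was not tested independently and no p is given. Per 1000 macrophage gene UMIs Id3 was lower at P3 in both classes, at 0.556 and 0.467 of its E16.5 level. Between the macrophage-like clusters rich in erythroid markers Id3 did not fall (7.17 at E16.5 and 7.56 at P3).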

How the results depend on the processing

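Among the stage values of single members under alternatives (260 in macrophage-like cells and 160 over all barcodes), 391 kept their side of the threshold (14 of these, never called, changed sign: Adgre1, Cd5l and Id3 in 8 cases and Id3 in 6), 16 passed it newly, 9 no longer passed (7 of them Cd5l over all barcodes, and Fcna and Nr1h3 with scaling to the general macrophage genes) and 4 reversed. The 4 reversals came with scaling to the general macrophage genes, an alternative added after seeing the data: Adgre1 -0.93, Id3 -0.85, Timd4 -0.72 and Spic -0.36. Under it 3 members were called higher and 3 lower, in place of 6 and 0. With the C1q genes left out of that reference, 5 members were higher and 1 lower without overlap, in place of 2 and 2. The share of all genes without overlap was counted on neither scale. All 310 genotype values of members stayed uncalled, although 23 (all barcodes) and 21 (macrophage-like cells) of them changed sign.

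Genotype calls over all genes at E16.5 were few and moved with the settings. In macrophage-like cells they numbered 0 in the main fit, 1 with DESeq2, 66 with no filter on low counts and 0 to 9 when each library was left out, with 9 without Jag1Ndr/Ndr replicate 2, where 1 homozygous library is left and is assumed to vary like the other group. Over all barcodes they numbered 5 with DESeq2, 2 with no filter, 1 with no scaling factor and 0 to 1 with a library left out. The rise in the share of macrophage-like cells did not pass without the neutrophil-rich P3 cluster (1.61 points), at clustering resolution 2 (0.830) or with the top 10% of doublet scores removed (1.73). It passed, and was larger, with doublets kept (2.66), with cells taken by C1q UMIs in place of clusters (3.71), in cells of low globin (3.57) and in the cluster with the least globin (2.85). With at least 2000 UMIs per cell (1.81) and with the members allowed among the variable genes (2.07) it passed too. The C1q and globin choices cannot decide the question, because what they select on shifted with age. C1qa went from 1104 to 4823 CPM, and low-globin cells were 3.62% to 14.3% of fetal and 57.3% to 69.6% of P3 macrophage-like cells. With a library left out the rise in share ran from 0.980 to 2.58 points, passing only without library D. Without thinning, the differences of Adgre1 (13.97 points) and Cd5l (6.91 points) in the share of macrophage-like cells with a UMI no longer passed. In the cells of low globin, leaving out the thinning turned Nr1h3 from higher to lower at P3 (-15.4 points) and made Adgre1 (-17.3), Id3 (-35.1), Spic (-23.4) and Timd4 (-17.2) lower. The cause of these changes was not tested.

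Replicate numbers are shared between groups, but libraries of the same number deviated together only weakly (r = 0.114, 0.119 and 0.0114), so the numbers were not taken as pairs. With the replicate block 0 genes were called for genotype in both fits, and 5713 genes in macrophage-like cells and 7621 over all barcodes for stage, with 6 and 7 members higher, as without it. Depth differed between ages in the low-globin cells (medians of 13850 to 20080 UMIs against 3306 to 4982), and its part in the shares of cells with a UMI was not tested beyond the thinning.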
